A study of Capra hircus with 2 samples.

Results

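SAMSN1, CD96 and CD80 are 3 genes best known from leukocytes, and they were described here in single ovarian granulosa cells of the Ji'ning grey goat. They were chosen by name from the 154 complete gene rows of the authors' table, and any cell with a value above 0 for a gene was counted as positive for it. The study holds 2 droplet libraries (10x Genomics, 3' end), 1 from the goats labelled high fertility and 1 from those labelled low fertility, which the series tells apart by litter size. Both are of the same breed and the same labelled cell type, and no treatment is named. How many goats, and of what age, stand behind each library is not stated in the labels. The high fertility library had 7106 cells and the low fertility library 3345, with a median of 7214.5 and 11080 unique molecular identifiers (UMIs, each standing for 1 captured transcript) per cell. The 2 libraries shared 27 cell barcodes. As each group is a single library, no replicate exists and no test between groups was run, and every interval below is a 95% interval that covers counting error only.

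SAMSN1 encodes an adaptor protein with a SAM and an SH3 domain that dampens signalling in B cells and other blood cells. CD96 is an immunoglobulin-family receptor of T and natural killer cells that binds the poliovirus receptor. CD80 is a B7-family ligand on antigen-presenting cells that engages CD28 and CTLA4 on T cells. Leukocytes are resident in the ovary and enter the follicle wall around ovulation, while granulosa cells line the follicle and surround the oocyte. In the table SAMSN1 lies between NRIP1 and HSPA13, CD96 between NECTIN3 and PHLDB2, and CD80 between TIMMDC1 and ADPRH.

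The leukocyte link of these genes could not be checked further in these cells. Of 9 leukocyte markers listed, the rows analysed here hold 3, and these are the 3 genes themselves. Of 8 markers of T and NK cells they hold 1, CD96, and of 8 markers of macrophages and dendritic cells 1, CD80. None of the 8 granulosa cell markers listed is among these rows. The cells are therefore called by the gene they carry, and no cell type is given to them.

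SAMSN1, the adaptor, was by far the most often detected of the 3. The high fertility library held 989 SAMSN1 UMIs in 583 cells, which is 8.20% of its cells (7.58 to 8.87) and 15.5 counts per 1000000 UMIs (CPM, 14.6 to 16.5). Its low fertility counterpart held 671 UMIs in 366 cells, 10.9% of its cells (9.90 to 12.0) and 14.7 CPM (13.6 to 15.8). The level of SAMSN1 in the high over the low fertility library was 1.06 (0.956 to 1.17), so the counting intervals of the 2 libraries overlap. After thinning to 2000 UMIs, which left 6897 and 3213 cells, 3.44% and 3.51% of cells had SAMSN1. The direction of the ratio depends on the scaling, as it was 0.943 after division by the median ratio of the genes of 50 CPM or more and 0.733 when standardised over 8 classes of depth.

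The receptor CD96 and the ligand CD80 were rare. CD96 had 21 UMIs in 16 cells of the high fertility library (0.329 CPM, 0.225% of cells) and 21 UMIs in 15 cells of the low fertility library (0.460 CPM, 0.448% of cells). CD80 had 18 UMIs in 17 cells (0.282 CPM, 0.239%) and 11 UMIs in 11 cells (0.241 CPM, 0.329%). The ratio of levels between libraries was 0.716 for CD96 (0.372 to 1.38) and 1.17 for CD80 (0.524 to 2.75), and both intervals include 1. Other scalings moved both. The CD96 ratio was 0.332 as a mean over cells, 0.384 when standardised over the 8 classes of depth and 0.449 in cells of 15000 UMIs or fewer. For CD80 the direction turned, with 0.639 both as a mean over cells and when standardised, and 0.841 in cells of 15000 UMIs or fewer. On summed UMIs none of the 3 genes reached a 1.5-fold difference, whereas CD96 and CD80 passed it towards the low fertility library when standardised over depth. On summed UMIs, 12.8% of the 141 genes with at least 20 UMIs passed 1.5-fold towards the high fertility library. Towards the low fertility library 9.93% did. No such share of all genes was worked out for the standardised ratios, so those of CD96 and CD80 have no background beside them.

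SAMSN1 UMIs were gathered in fewer cells than an even level would give. Positive cells carried 1.70 and 1.83 SAMSN1 UMIs on average, in the high and low fertility library, and at most 8 in either. If all cells had SAMSN1 at 1 rate per UMI, 890 and 572 cells would have been positive in place of 583 and 366. Cells with 2 or more SAMSN1 UMIs numbered 246 against 88.2 at an even rate in the high fertility library, and 163 against 83.0 in the low fertility library. Cells with 3 or more numbered 103 against 9.55 and 79 against 13.3. The cells with 2 or more held 65.9% and 69.7% of all SAMSN1 UMIs, but 3.31% and 5.37% of the UMIs of their libraries. Genes near SAMSN1 in level were mixed in this. In the high fertility library CD200 had 1104 UMIs in 722 cells, DCBLD2 1187 in 675 and FILIP1L 1525 in 713. Low fertility numbers were 614 in 338, 523 in 361 and 362 in 228. ITSN1 had at most 1.24 and 1.42 UMIs per positive cell in any class of depth. The count at an even rate was not worked out for these genes.

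The share of SAMSN1-positive cells did not climb steadily with the depth of the cell. It was 6.99% in cells below 2500 UMIs of the high fertility library, between 7.37% and 11.1% from 2500 to 30000 UMIs, and 3.36% in cells of 30000 or more. The same shares of the low fertility library were 8.13%, 8.80% to 19.4%, and 7.56%. The level of SAMSN1 fell with depth, from 69.3 CPM below 2500 UMIs to 0.963 CPM at 30000 or more in the high fertility library. In the low fertility library it went from 55.0 to 3.45 CPM, though not in every step, with 11.2 CPM from 10000 to 15000 UMIs and 18.4 CPM from 20000 to 30000. The median SAMSN1-positive cell had 7411 UMIs in the high fertility library, close to the 7214.5 of all cells, and 12071.5 against 11080 in the low fertility library. Of the genes near SAMSN1 in level, 4 (CD200, DCBLD2, ITSN1 and FILIP1L) differed from it in this: they were found in 2.59% to 6.22% of the shallowest cells and in 29.5% to 43.6% of the deepest in the high fertility library. For the low fertility library these genes went from 1.22% to 3.66% in the shallowest cells to 18.7% to 39.6% in the deepest.

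**Figure D1:**
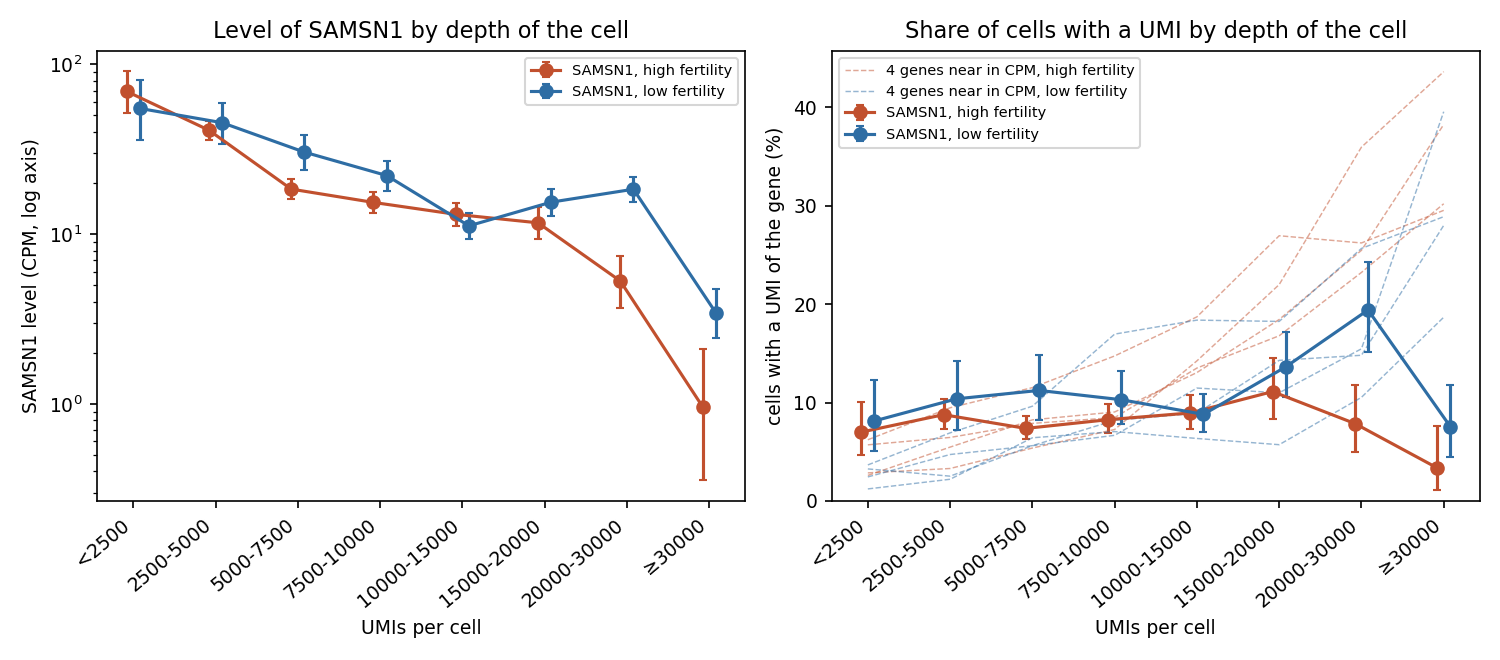
Left, SAMSN1 level in CPM (log axis) in 8 classes of UMIs per cell, for the high fertility (orange) and low fertility (blue) library, with 95% Poisson intervals. Right, the percentage of cells with a UMI of SAMSN1 (solid, with exact binomial intervals) and of 4 genes near it in level (dashed). The SAMSN1 share stays below 20% in every class, whereas each dashed line ends between 18.7% and 43.6% in the deepest cells.

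By their course over these 8 classes, the genes most like SAMSN1 were GBE1 (Spearman's rho of CPM 0.952 in either library), GRAMD1C (0.976 and 0.929), SON (0.976 and 0.905), TIAM1 (0.881 and 0.857) and TOMM70 (0.905 and 0.810). These values describe 8 points that share the same cells and the same totals, and no p is given. Of the 5, TIAM1 alone was also 1.5-fold or more higher in SAMSN1-positive cells of both libraries, as described below.

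CD96-positive cells of the low fertility library were shallow. Their median was 3007 UMIs, and 13 of the 15 lay below 5000, which is 86.7% of them against 16.9% of all cells of that library. Their totals ran from 1847 to 9888. In the high fertility library CD96-positive cells had a median of 8813 UMIs, from 1698 to 14265, and 5 of the 16 lay below 5000. No CD96 UMI was found in the 839 and 984 cells above 15000 UMIs, which allows a level of up to 0.151 and 0.116 CPM, taken as 3 counts over the UMIs of those cells. Below 5000 UMIs the level of CD96 was 1.42 CPM (0.648 to 2.69) in the high and 11.6 CPM (6.97 to 18.1) in the low fertility library. These 2 intervals do not overlap, but they take UMIs as independent, and the 19 UMIs of the low fertility library lay in 13 cells. The cells below 5000 UMIs also differed in depth. Of the 564 low fertility cells 246 were below 2500 UMIs, against 386 of the 1812 high fertility cells. From 2500 to 5000 UMIs CD96 was at 0.534 CPM (0.110 to 1.56) in the high and 7.70 CPM (3.52 to 14.6) in the low fertility library. Below 2500 UMIs it was at 8.16 CPM (2.99 to 17.8) and 21.2 CPM (10.1 to 38.9), with overlapping intervals. How many of all genes differ in this way was not worked out. The bound of 5000 was set with the depths of the cells known.

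CD80-positive cells were found in shallow and in deep cells. Their median was 5778 UMIs in the high fertility library, from 2429 to 31772, and 7595 in the low fertility library, from 1086 to 24605. Each library had 3 CD80-positive cells above 15000 UMIs. A single cell, in the high fertility library, held 2 CD80 UMIs, and the others held 1.

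**Figure D2:**
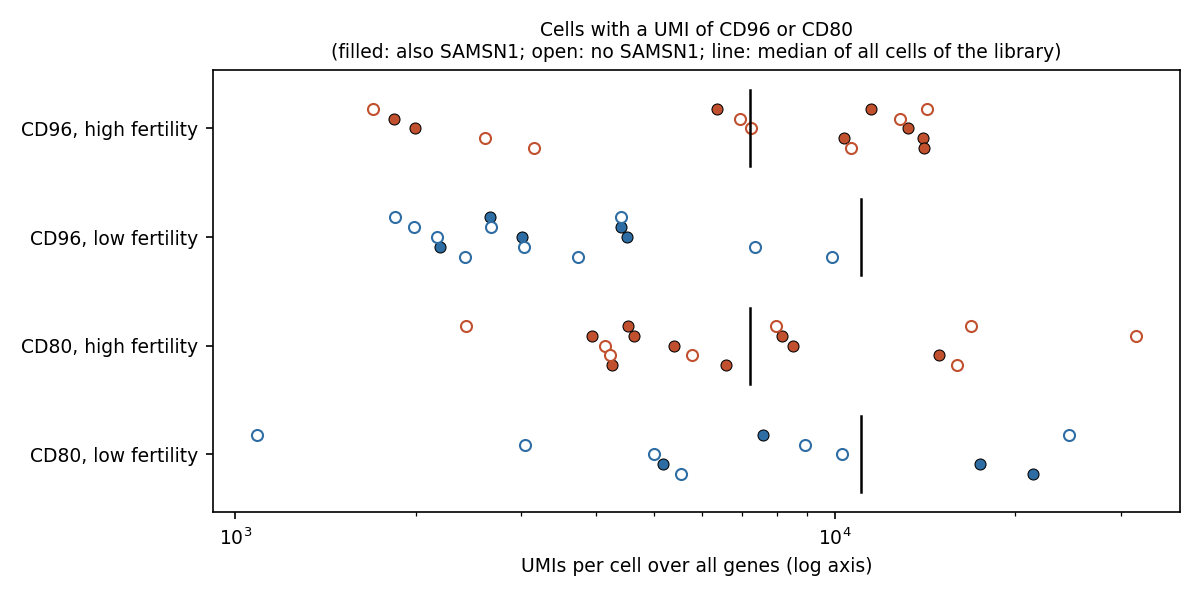
Each circle is 1 cell with a UMI of CD96 or CD80, placed by its UMIs over all genes (log axis). Filled circles also had SAMSN1, open circles did not, and the vertical lines mark the median of all cells of the library. In the low fertility library 13 of 15 CD96-positive cells lie below 5000 UMIs, left of the line at 11080.

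Both CD96 and CD80 were found together with SAMSN1 more often than cells of the same depth would give. The number expected was taken from the SAMSN1-negative cells in the same of the 8 classes of depth. In the high fertility library 8 cells had SAMSN1 and CD96 against 0.721 expected, a ratio of 11.1 (4.79 to 21.9), and 9 cells had SAMSN1 and CD80 against 0.722 expected, a ratio of 12.5 (5.70 to 23.7). The same pairs of the low fertility library were found in 5 cells against 1.06, a ratio of 4.72 (1.53 to 11.03), and in 4 cells against 0.899, a ratio of 4.45 (1.21 to 11.4). All 4 intervals lie above 1, but they take the expected number as fixed. That number rests on few SAMSN1-negative cells. With CD96 and CD80 these were 8 and 8 in the high fertility library, and 10 and 7 in the low. Taken the other way, from cells without CD96 or without CD80, the numbers expected were larger. They were 1.28 with CD96 and 1.39 with CD80 in the high fertility library, and 1.36 and 1.32 in the low. No interval was worked out against these larger numbers. Counted in UMIs, the CD96 ratio of the low fertility library was 3.07 (0.997 to 7.16), whose interval reaches 1. The CD80 ratio there was 4.44 (1.21 to 11.4). Other genes with few UMIs had ratios of similar or larger size in that library. Examples are MIS18A at 55.5 (22.3 to 114), POGLUT1 at 4.06 (1.86 to 7.72) and CRYBG3 at 3.47 (1.85 to 5.94). Others lay below 1, such as URB1 at 0.590. How many of all genes with so few UMIs reach such ratios was not worked out, so no background stands beside these pairs.

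Seen from the rarer genes, SAMSN1 was present in 50% (24.7 to 75.3) of the CD96-positive cells of the high fertility library. For its CD80-positive cells the share was 52.9% (27.8 to 77.0). The low fertility library gave 33.3% (11.8 to 61.6) and 36.4% (10.93 to 69.2). The interval for CD80 there reaches down to 10.94%, the share of all cells of that library with SAMSN1. CD96-positive cells held 16 SAMSN1 UMIs against 2.22 expected at their depth in the high fertility library (ratio 7.22, 4.13 to 11.7) and 12 against 2.06 in the low fertility library (ratio 5.81, 3.003 to 10.2). CD80-positive cells held 21 against 2.48 (ratio 8.46, 5.24 to 12.9) and 5 against 2.34 (ratio 2.14, 0.695 to 4.99). The last of these intervals includes 1, and the other 3 lie above it. All 4 take UMIs as independent, yet 1 CD96-positive cell of the high fertility library held 7 of the 16 SAMSN1 UMIs. The most in 1 cell was 4 of 12 for CD96 in the low fertility library, and 5 of 21 and 2 of 5 for CD80. No cell had CD96 and CD80 together, but at these numbers only 0.0282 and 0.0815 such cells would be expected, so their absence is not informative. In all, 982 of the 10451 cells had at least 1 of the 3 genes, 26 had 2 and 0 had all 3.

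The other genes were then compared between SAMSN1-positive cells and SAMSN1-negative cells of the same depth. The ratio given is the number of UMIs observed in positive cells over the number expected from the negative cells of the same class of depth, and its interval takes the expected number as fixed. A gene was called at 1.5-fold when it had at least 20 observed or expected UMIs, which 72 genes had in each library. In the high fertility library 14 genes (19.4%) were higher and 34 (47.2%) lower. The low fertility numbers were 19 (26.4%) higher and 23 (31.9%) lower. The median ratio over the 72 genes was 0.710 and 0.994.

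The called genes of the 2 libraries overlapped. Of them, 12 were higher in both libraries, which is 85.7% of the high fertility list and 63.2% of the low fertility list. There were 22 lower in both, 64.7% and 95.7% of the lists. Of the 67 genes with enough UMIs in both libraries, 59 lay on the same side of 1, and 0 were called in opposite directions. Genes called in 1 library and not in the other were not tested for a difference.

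**Figure D3:**
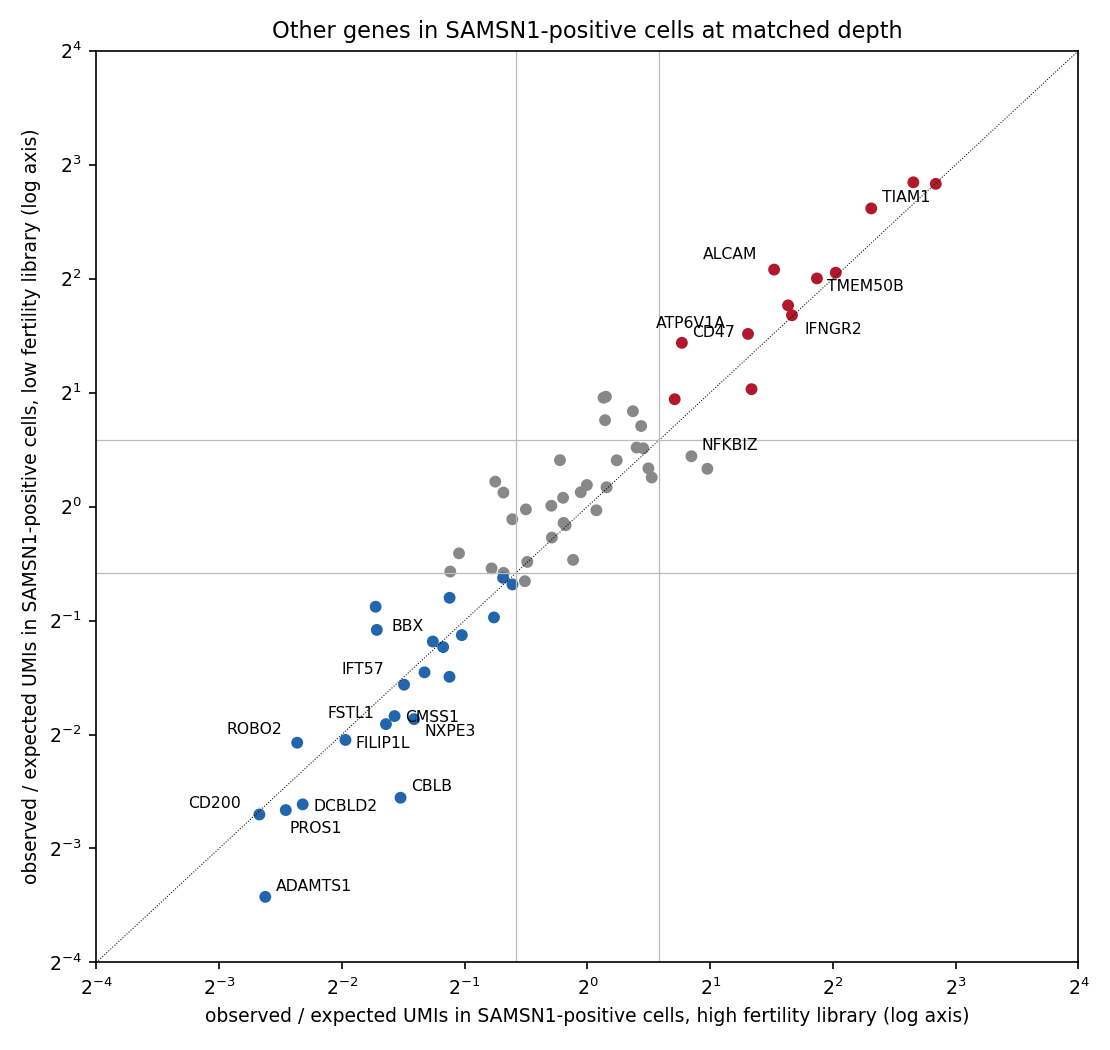
Ratio of observed to expected UMIs in SAMSN1-positive cells, high fertility library against low fertility library (both axes log), for the 67 genes with at least 20 observed or expected UMIs in both. Red points were 1.5-fold or more higher in both libraries (12 genes), blue points lower in both (22 genes), grey lines mark 1.5-fold, and the dotted line marks equal ratios.

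Among the higher genes, TIAM1 encodes an exchange factor that activates the small GTPase RAC. SAMSN1-positive cells of the high fertility library held 122 TIAM1 UMIs against 24.6 expected, a ratio of 4.97 (4.12 to 5.93), and those of the low fertility library 102 against 16.6, a ratio of 6.13 (5.0003 to 7.44). TMEM50B, a small membrane protein, had 169 against 46.2 UMIs (ratio 3.65, 3.12 to 4.25) and 160 against 39.9 (ratio 4.01, 3.41 to 4.68). All of these intervals lie well above 1.5.

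IFNGR2, ALCAM, CD47 and ATP6V1A were higher in both libraries as well. IFNGR2, the signalling chain of the interferon gamma receptor, had 613 UMIs against 193 expected in the high fertility library and 716 against 224 in the low fertility library. ALCAM, an adhesion molecule bound by CD6 on T cells, had 177 against 61.7 and 117 against 27.7. CD47, the ligand of SIRPA that restrains engulfment by macrophages, had 57 against 33.4 (ratio 1.71, 1.29 to 2.21) and 105 against 38.8 (ratio 2.71, 2.21 to 3.28). ATP6V1A, the catalytic subunit of the proton pump of acidic organelles, had 78 against 31.5 (ratio 2.48) and 115 against 40.2 (ratio 2.86).

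The remaining genes higher in both were C21orf91 (ratio 2.53 and 2.04), DNAJC28 (1.64 and 1.92) and 4 genes known only by an identifier. ENSCHIG00000021536 had 21 UMIs against 2.94 expected (ratio 7.15) and 39 against 5.48 (ratio 7.12). ENSCHIG00000015902 had 150 against 23.8 (ratio 6.30) and 206 against 28.7 (ratio 7.19). These were the 2 largest ratios among genes with enough UMIs, in either library. ENSCHIG00000021896 had a ratio of 4.07 and 4.15, and ENSCHIG00000012911 of 3.11 and 3.40. Taken from the other side, SAMSN1 was found in 38.6% and 48.7% of the cells with ENSCHIG00000015902, against 6.89% and 7.64% of the cells without it.

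PROS1, ADAMTS1 and FSTL1, which encode secreted proteins, were lower in both libraries. PROS1 encodes protein S, an anticoagulant that also bridges dying cells to TAM receptors. SAMSN1-positive cells held 82 PROS1 UMIs against 450 expected in the high fertility library (ratio 0.182, 0.145 to 0.226) and 55 against 348 in the low fertility library (ratio 0.158, 0.119 to 0.206). ADAMTS1, a versican-cleaving protease induced in granulosa cells at ovulation, had 12 against 73.9 (ratio 0.162) and 3 against 32.2 (ratio 0.0931). FSTL1, a secreted glycoprotein, had 9 against 28.1 (ratio 0.321) and 6 against 22.5 (ratio 0.266).

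Also lower in both were CD200, ROBO2, DCBLD2, FILIP1L and CBLB. CD200, whose receptor on myeloid cells is inhibitory, had 15 UMIs against 95.6 expected (ratio 0.157, 0.0879 to 0.259) and 12 against 78.1 (ratio 0.154, 0.0794 to 0.268). ROBO2, a receptor for SLIT proteins, had 5 against 25.7 (ratio 0.194) and 5 against 21.0 (ratio 0.238). DCBLD2, a membrane protein, had a ratio of 0.200 and 0.163, and FILIP1L, a relative of a filamin-binding protein, of 0.255 and 0.242. CBLB, a ubiquitin ligase that restrains T cell activation, had 68 against 195 (ratio 0.348, 0.270 to 0.442) and 30 against 176 (ratio 0.170, 0.115 to 0.243).

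Of the other named lower genes, IFT57 encodes a protein of the transport machinery of the primary cilium. IFT57 had 132 UMIs against 372 expected and 111 against 328, which gives ratios of 0.355 and 0.338. CMSS1 had 161 against 478 (ratio 0.337) and 134 against 479 (ratio 0.280), and NXPE3 ratios of 0.376 and 0.275. The upper bound of every ratio named in this paragraph is below 0.667, the bound for a call.

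Cells with PROS1 give a low point for SAMSN1 within each library. SAMSN1 was found in 1.92% (1.43 to 2.52) of the 2605 PROS1-positive cells of the high fertility library and in 11.8% of its other cells. The low fertility library had it in 2.36% (1.61 to 3.34) of 1312 PROS1-positive cells and in 16.5% of the others. The PROS1-positive cells were the deeper ones, with a median of 8942 against 6454 UMIs and 13454.5 against 9320. PROS1 was picked for this after its values were seen. No cell type that should lack SAMSN1 could be named from these rows, so the share that free RNA gives was not measured.

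The level of PROS1 was lower still in cells with more SAMSN1. PROS1 was found in 39.2% of SAMSN1-negative cells of the high fertility library, and in 10.98%, 6.99% and 2.91% of cells with 1, 2 and 3 or more SAMSN1 UMIs. The low fertility shares were 43.0%, 12.8%, 3.57% and 2.53%. At matched depth the PROS1 ratio was 0.243, 0.116 and 0.0665 in the high and 0.276, 0.0382 and 0.0226 in the low fertility library. The intervals for cells with 1 and with 3 or more SAMSN1 UMIs do not overlap in either library. CBLB gave 0.471, 0.207 and 0.124 in the high fertility library, where these outer intervals do not overlap either, and 0.206, 0.211 and 0.0648 in the low fertility library, where they do.

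IFNGR2 did not follow the number of SAMSN1 UMIs in this way. It was found in 23.1% of SAMSN1-negative cells and in 54.6%, 62.2% and 50.5% of cells with 1, 2 and 3 or more SAMSN1 UMIs in the high fertility library. Low fertility cells gave 33.3%, 67.5%, 77.4% and 68.4%. Its ratio at matched depth was 3.03, 3.60 and 3.07 in the high and 3.15, 3.49 and 3.05 in the low fertility library, with overlapping intervals. ALCAM gave 2.40, 3.69 and 3.32, and 3.50, 4.33 and 5.57, again with overlapping intervals.

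**Figure D4:**
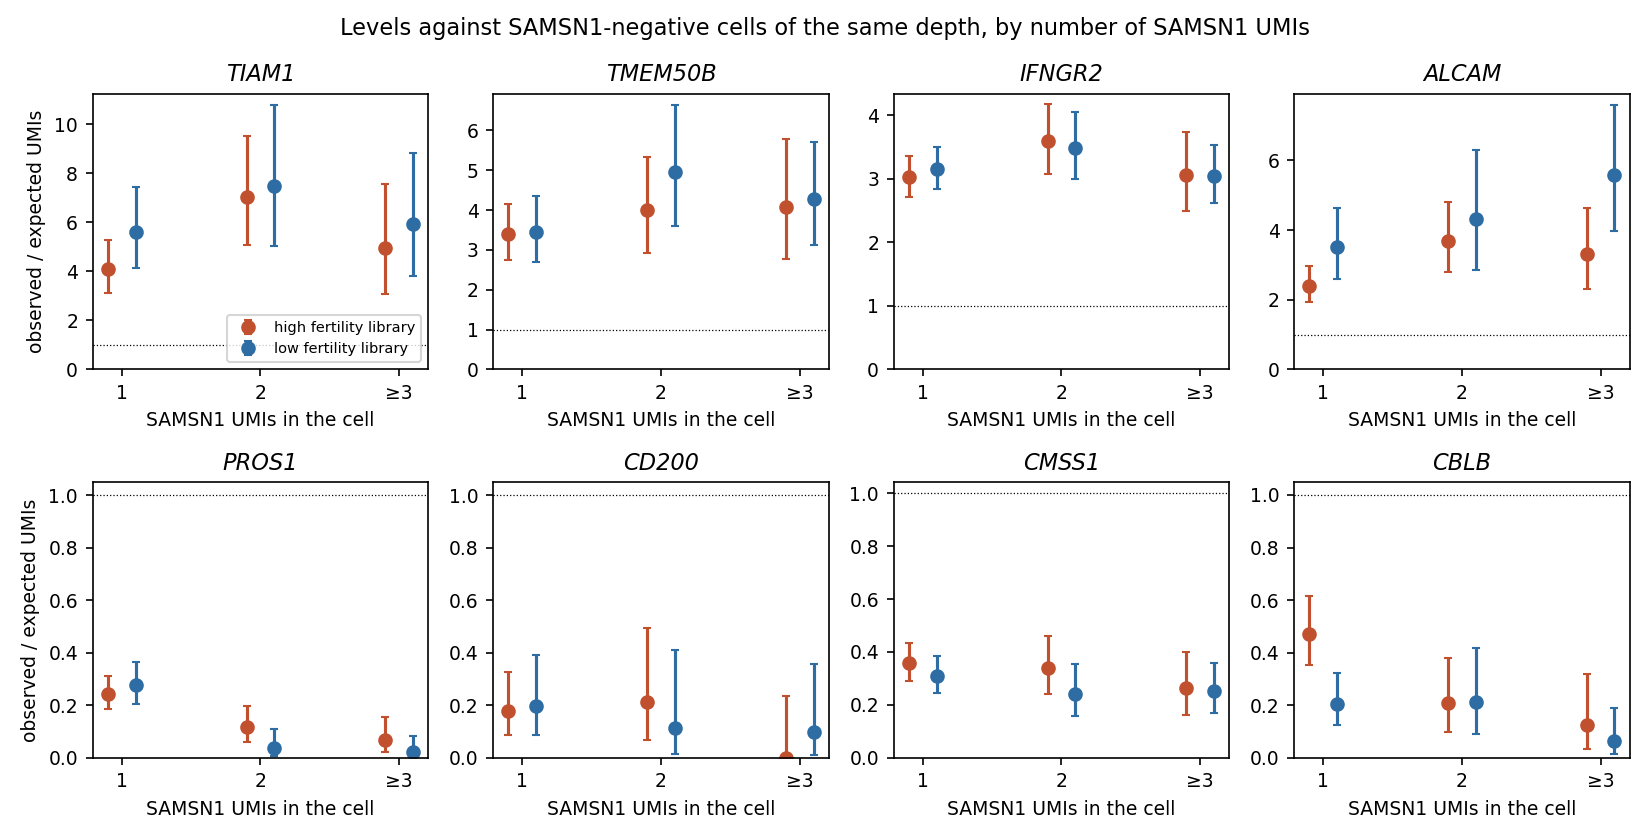
Ratio of observed to expected UMIs for 8 genes in cells with 1, 2 and 3 or more SAMSN1 UMIs, with 95% intervals, in the high fertility (orange) and low fertility (blue) library. The dotted line marks 1, the level of SAMSN1-negative cells of the same depth. In the high fertility library PROS1 goes from 0.243 to 0.0665, while IFNGR2 stays between 3.03 and 3.60.

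Genes of lymphocyte co-signalling, the class to which CD96 and CD80 belong, lay on both sides of 1 in SAMSN1-positive cells. Of 23 genes listed, 6 are among the rows analysed here. Apart from CD96 and CD80, CD47 was higher in both libraries, while CBLB and CD200 were lower, so 1 of the 3 genes with enough UMIs was higher and 2 were lower, against 19.4% higher and 47.2% lower of all genes in the high fertility library and 26.4% and 31.9% in the low fertility library. With 3 genes, nothing particular to this list can be read from that mix. NECTIN3, an adhesion molecule of the nectin family, had 2 UMIs against 12.4 expected and 2 against 8.82, which is under the minimum for a call.

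Of 7 cytokine receptor genes listed, 3 are among these rows, and IFNGR2 was the one with enough UMIs. IFNAR1, a chain of the type I interferon receptor, had 10 UMIs against 8.96 expected (ratio 1.12, 0.535 to 2.05) and 17 against 7.27 (ratio 2.34, 1.36 to 3.74). IL10RB, a chain shared by the receptors of interleukin 10 and related cytokines, had 10 against 5.22 (ratio 1.91, 0.918 to 3.52) and 5 against 7.92 (ratio 0.631, 0.205 to 1.47). Neither was called, and for IL10RB the intervals include 1 in both libraries.

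Of 17 listed adaptors and regulators of blood cells, 6 are among the rows, SAMSN1 included. NFKBIZ, a nuclear regulator of NF-kappa-B target genes, had 1349 UMIs against 750 expected (ratio 1.80, 1.70 to 1.90) and 764 against 562 (ratio 1.36, 1.26 to 1.46). It passed 1.5-fold in the high fertility library and not in the low fertility library. BACH1, a haem-responsive repressor, had 18 against 6.47 (ratio 2.78, 1.65 to 4.39) and 15 against 7.15 (ratio 2.10, 1.17 to 3.46), under the minimum for a call. The others were below that minimum as well: ZBTB20 had ratios of 0.385 and 0.334, ZBTB11 of 1.96 and 0.903, and USP25 of 0.456 and 3.40.

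**Figure D5:**
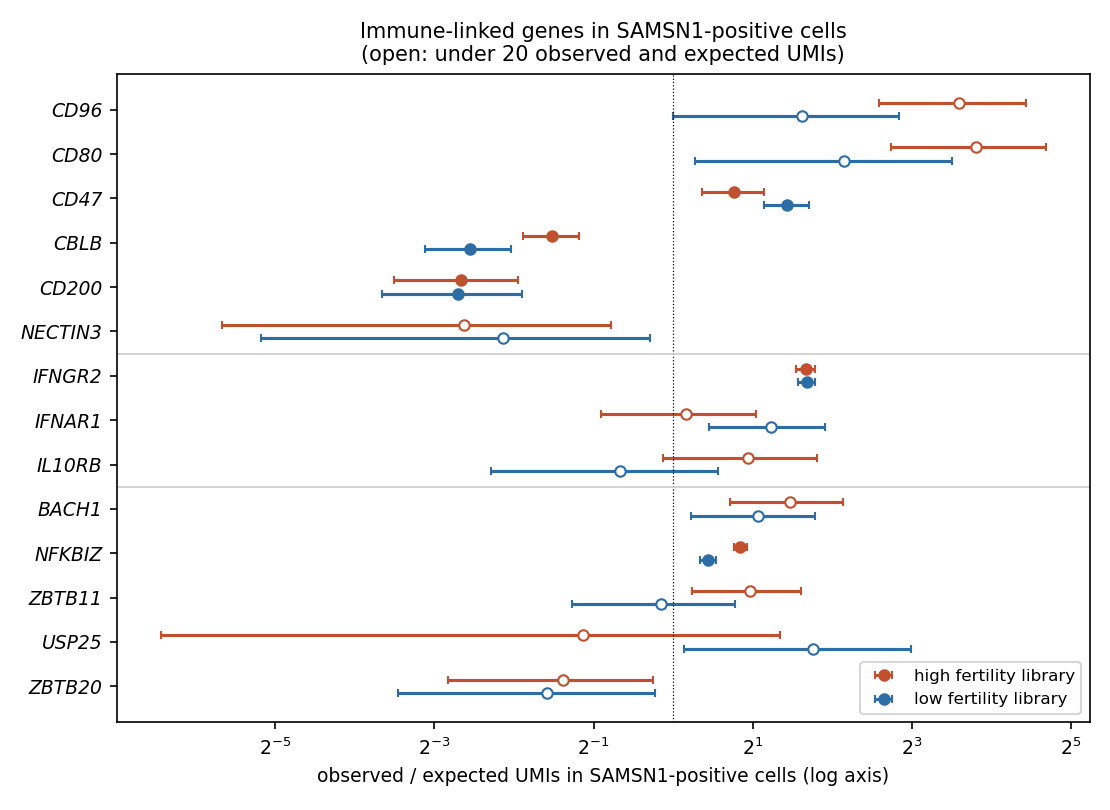
Ratio of observed to expected UMIs in SAMSN1-positive cells (log axis) with 95% intervals, for the measured genes of co-signalling, cytokine receptors, and adaptors and regulators, in the high fertility (orange) and low fertility (blue) library. Open points had under 20 observed and expected UMIs. CD96 and CD80 stand at 12.1 and 14.0 in the high fertility library.

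The depth of the cell changed some of these ratios. For NFKBIZ the ratio was 3.17 in cells below 5000 UMIs, 1.88 from 5000 to 15000 and 1.06 above 15000 in the high fertility library. It was 3.996, 2.18 and 0.871 in the low fertility library, so NFKBIZ was on the other side of 1 in its deepest cells. IFNGR2 gave 4.67, 3.48 and 1.98 in the high and 1.93, 4.01 and 2.87 in the low fertility library. PROS1 gave 0.120, 0.126 and 0.324 in the high and 0.194, 0.136 and 0.170 in the low fertility library, and stayed below 0.5 in every class.

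Markers of other cell types could hardly be read. Of 5 stromal markers listed, the rows hold COL8A1 and CCDC80. COL8A1, a collagen, had 5 UMIs in SAMSN1-positive cells against 47.2 expected (ratio 0.106) and 1 against 19.5, the latter under the minimum of 20 UMIs for a call. CCDC80, a matrix protein, had ratios of 1.18 (1.03 to 1.35) and 1.33 (1.05 to 1.65) in UMIs, which is short of 1.5-fold. Counted in cells, it was found in 107 SAMSN1-positive cells against 64.8 expected and in 51 against 39.0. Of 3 markers of the surface epithelium 1 was measured, UPK1B, with 1 UMI against 2.497 and 6 against 2.02, too few for a call in either library. No listed marker of B cells, theca cells, endothelial cells or red cells is among the rows, and the part of such cells in these ratios was not tested.

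CD80-positive cells were compared with cells of the same depth in the same way, although each library had few of them. No PROS1 UMI was found in those of the high fertility library against 12.0 expected, too few for a call, and NFKBIZ had 58 UMIs against 22.9, a ratio of 2.53 (1.92 to 3.27). PROS1 in the low fertility library had 5 against 6.72 and NFKBIZ 13 against 12.4, and both intervals include 1. TMEM50B had 8 against 1.54 (ratio 5.18, 2.24 to 10.2) and 5 against 1.31 (ratio 3.81, 1.24 to 8.90), both under the minimum of 20 UMIs for a call. In CD96-positive cells the NFKBIZ ratio was 0.974 and 0.980, and PROS1 had 8 UMIs against 10.8 and 1 against 3.71, all with intervals that include 1. As part of these cells also carry SAMSN1, they are no independent sample.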

How the data were processed

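Ovarian granulosa cells of 1 high and 1 low fertility library were made with the 10x Genomics 3' V2 kit, per the labels' protocols. Cell Ranger 2.2.0 was used, per the submitters' processing notes. Genome build, annotation and cell filter were not given in the sources used here. The authors deposited natural log values, ln(1 + 10000 × UMIs / total) as the values show. The plan was to use UMIs where log values allow it, so UMIs and totals were worked back from them. All 177610 values above 0 came out whole within 0.0001. The libraries held 63769786 and 45674506 UMIs. The table used here ends within a row, which was left out. The RefSeq table of assembly ARS1.2 was used for names and neighbours only, and holds all 3 genes.

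Levels (CPM) have exact Poisson intervals, with a limit of 3 counts where none was found, shares exact Clopper-Pearson intervals, and ratios between libraries exact binomial ones. Expected UMIs were taken from SAMSN1-negative cells in 8 classes of depth, bounded at 2500, 5000, 7500, 10000, 15000, 20000 and 30000 UMIs. The method was tested on simulated independent Poisson counts, with set fold changes and an even rate within each class of depth. UMIs gathered in few cells were not simulated, so the intervals were not tested for such genes. No doublet caller was run. Named genes are the 3 genes, the measured genes of 3 lists, the 20 genes past 1.5-fold in the same direction in both libraries with the larger smaller size, and the 5 most like SAMSN1 over depth; others named were chosen after their values were seen, and 1 gene is not reported here. The genes and lists were chosen with earlier results of these data known. Python 3.11.15, numpy 2.4.6, pandas 2.3.3, scipy 1.17.1 and matplotlib 3.10.9 were used.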

Additional observations from a re-analysis of the deposited data

How the results depend on the processing

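No paired analysis was possible because there is just 1 library on each side, so no replicate could be left out either. Of 117 recomputed main values, 86 stayed within the counting interval or within 1.5 times the count, and 31 moved. The ratio of SAMSN1 between libraries was 0.943 after division by the median ratio of genes of 50 CPM or more. When standardised over the 8 classes of depth it was 0.733. Both lie on the other side of 1 from the 1.06 on summed UMIs, and no interval was worked out for either. The ratio of CD96 was 0.332 as a mean over cells. The ratio of CD80, 1.17 on summed UMIs, was 0.639 as a mean over cells and when standardised over depth, and 0.841 in cells of 15000 UMIs or fewer, within its counting interval but on the other side of 1. With 2 or more UMIs of the gene, the median depth was 13807 for SAMSN1 in the low fertility library, and 2303.5 and 2079 for CD96 in the high and low fertility library; no low fertility cell had 2 CD80 UMIs.

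The counts of called genes changed most where fewer cells or UMIs were used. In the high fertility library the 14 higher genes became 6 in cells below 5000 UMIs, 27 with a minimum of 5 UMIs and 35 with 1. The 34 lower genes became 19 with 2 or more SAMSN1 UMIs, 11 in cells below 5000 UMIs and 66 with a minimum of 1 UMI. In the low fertility library the 19 higher genes became 2 in cells below 5000 UMIs, 12 in cells of 15000 or fewer, 12 at 2-fold, and 32 and 38 with a minimum of 5 and 1 UMIs. The 23 lower genes became 0 below 5000 UMIs, 14 in cells of 15000 or fewer, and 36 and 52 with a minimum of 5 and 1. Below 5000 UMIs the low fertility library has 564 cells, so few genes could reach 20 UMIs.

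Other settings were added after seeing the data. Without the cells of the 27 shared barcodes, the ratios of the 3 genes between libraries kept their place; the other values were not recomputed without them. The lower genes of the high fertility library became 17 with exactly 2 SAMSN1 UMIs, 13 with 3 or more, 14 in cells above 15000 UMIs and 7 in cells with TIAM1 and without SAMSN1. In the low fertility library the lower genes became 11, 12, 14 in cells of 5000 to 15000 UMIs and 9 in the TIAM1 cells, and the higher genes 12 in cells of 5000 to 15000 and 10 in the TIAM1 cells. Of 705 values recomputed for 24 named genes, 539 kept their place, 158 moved and 8 changed sides of 1. NFKBIZ in the low fertility library was at 0.998 in cells with 3 or more SAMSN1 UMIs and 0.871 above 15000 UMIs. In the TIAM1 cells without SAMSN1, ADAMTS1 was at 1.41 and 1.83, FILIP1L at 1.13 and 1.42, ROBO2 at 1.02 in the high and FSTL1 at 1.06 in the low fertility library. The cause of these changes was not tested.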

Other observations

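The genes called in both libraries were also read in cells with a TIAM1 UMI and no SAMSN1 UMI. The high fertility library had 235 of these and the low fertility library 105. Relative to other SAMSN1-negative cells of the same depth, 10 of 10 and 11 of 11 of the higher genes measured there lay above 1, with a median ratio of 2.13 and 2.49. Of the lower genes, 19 of 22 and 17 of 22 lay below 1, with a median of 0.709 and 0.616. Of all genes measured there, 47.6% and 51.9% lay above 1. TIAM1 was picked after its values were seen, and it is itself among the genes called higher. The cells were also part of the SAMSN1-negative reference for those calls. This reading is therefore no independent check of the called genes.

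ENSCHIG00000012599 had cells at low and at high deposited log values. In the high fertility library it was at 2.5 or more in 86.4% (83.4 to 89.1) of SAMSN1-positive and 41.9% (40.7 to 43.1) of SAMSN1-negative cells, without matching for depth. In the low fertility library these shares were 71.3% (66.4 to 75.9) and 66.6% (64.9 to 68.3), whose intervals overlap. The gene is named after its values were seen.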
